A study of Mus musculus with 12 samples.

Results

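Macrophages grown from the bone marrow of mice whose IRAK4 is kinase dead (IRAK4-KD) were compared with wild-type (WT) macrophages before any stimulus was given. The comparison took the 4 arrays of the unstimulated groups, 2 IRAK4-KD and 2 WT, out of 12 arrays in the study. It covered the 12462 autosomal genes that passed a filter on low signal, out of 12914 genes tested. The other 8 arrays came from the same kinds of cells given LPS at 1 µg/ml for 1 h or 4 h, with 2 arrays for each strain and time. They served to see whether a basal difference was also present with LPS. They also entered the filter and the estimate of spread behind the basal calls, so they are not independent of those calls. The unstimulated cultures were kept for 4 h. All 6 groups were grown in serum-containing macrophage medium with L-929 conditioned medium, a source of the growth factor CSF1, and the controls therefore also carried that agent. The labels call the replicates biological. Whether each came from an animal of its own is not said, so p-values cover only the spread between these arrays, which may be technical. The strain background, the altered residue of IRAK4 and the age and sex of the mice were not given in the sources used here.

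IRAK4 is a serine/threonine kinase that MyD88 recruits to Toll-like and interleukin-1 family receptors once a ligand binds. It acts both as a scaffold and as an enzyme upstream of IRAK1, IRAK2, TRAF6, NF-κB and the MAP kinases. A kinase-dead protein keeps the scaffold and lacks the enzyme. In unstimulated macrophages the pathway has no added ligand, although serum, medium and cytokines made by the cells themselves can signal through it.

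The promoters of 4 genes are shown because these genes were called lower in IRAK4-KD cells in every fit that left out 1 array, and their promoters carry the comparison of motifs and of a shared upstream region. Each run is the 250 bases before the gene's first listed start, read on the gene's own strand, from RefSeq on build GRCm38.p6. Lcn2 encodes lipocalin 2, which binds bacterial siderophores. Saa3 encodes the serum amyloid A made by macrophages. Capitals mark the letters TTGCNNAA on either strand, the core of a C/EBP site. C/EBP factors drive many acute-phase genes.

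Lcn2, chr2:32387740-32387989, minus strand: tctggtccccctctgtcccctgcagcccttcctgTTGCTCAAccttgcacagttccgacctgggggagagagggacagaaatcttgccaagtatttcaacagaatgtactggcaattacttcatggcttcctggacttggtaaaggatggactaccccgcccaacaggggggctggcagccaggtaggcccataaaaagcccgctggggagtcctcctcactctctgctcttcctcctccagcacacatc
Saa3, chr7:46715677-46715926, minus strand: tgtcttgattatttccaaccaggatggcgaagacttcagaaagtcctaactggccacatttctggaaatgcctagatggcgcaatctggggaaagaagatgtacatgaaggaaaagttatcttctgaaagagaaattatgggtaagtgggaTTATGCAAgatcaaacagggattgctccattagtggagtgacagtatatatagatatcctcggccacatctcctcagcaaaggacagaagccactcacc

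The C/EBP letters began at position -216 from the start of Lcn2 and at position -99 from that of Saa3. They occurred in 3 of the 3 called acute-phase genes with a promoter in the table (Lcn2, Saa3 and Ptx3). They occurred in 7.37% of the 10038 promoters of tested autosomal genes, in 10.1% of the 306 promoters of genes called lower and in 8.13% of the 246 promoters of genes called higher. The 3 promoters were looked at after their genes' values were known, and a match is a description of letters, not a binding site. The kappa B letters GGGANTTTC, which mark NF-κB sites, were in 0 of these 3 promoters. The kappa B letters were in 0.877% of all promoters and in 1.63% of those of genes called lower. The interferon response letters GAAANNGAA were in 1 of the 3 (Saa3, where they are not capitalised), in 6.21% of all promoters, 9.35% of those of genes called higher and 5.56% of those of genes called lower. The PU.1 letters GAGGAAGT were in 2.44%, 1.22% and 1.31% of the same sets, and the AP-1 letters TGAGTCA in 3.24%, 4.47% and 3.59%. Both strands were read for every motif, and overlapping matches count once per promoter.

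Tmem176a and Tmem176b encode related membrane proteins with a place in antigen presentation by dendritic cells. They lie head to head on chromosome 6, and capitals mark the 155 bases that both windows share on opposite strands.

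Tmem176a, chr6:48841233-48841482, plus strand: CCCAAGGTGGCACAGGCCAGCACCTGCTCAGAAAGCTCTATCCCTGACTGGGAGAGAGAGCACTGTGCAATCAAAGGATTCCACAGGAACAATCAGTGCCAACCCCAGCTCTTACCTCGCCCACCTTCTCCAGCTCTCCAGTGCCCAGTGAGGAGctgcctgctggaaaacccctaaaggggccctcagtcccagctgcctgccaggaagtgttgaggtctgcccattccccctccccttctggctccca
Tmem176b, chr6:48841138-48841387, minus strand: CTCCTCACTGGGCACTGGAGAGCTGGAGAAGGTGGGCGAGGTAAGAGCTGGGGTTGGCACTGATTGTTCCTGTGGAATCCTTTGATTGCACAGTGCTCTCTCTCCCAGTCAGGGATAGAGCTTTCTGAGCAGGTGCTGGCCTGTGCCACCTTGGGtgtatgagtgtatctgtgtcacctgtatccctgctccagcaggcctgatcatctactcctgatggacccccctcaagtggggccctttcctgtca

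None of the motifs named above was found in these windows. Both genes were among the 15 with the lowest basal difference by the naming rule, with values given further on.

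Signals are MAS5 intensities on a linear scale. Differences are log2(signal + 4.4), IRAK4-KD minus WT, each with the standard error (SE) of the fit. On this scale the change of a gene with low signal is understated. Genes were called at an adjusted p under 0.05 by limma with Benjamini-Hochberg adjustment over all tested probe sets. The trimmed mean of every array was 150, while array medians were 21.8 and 22 on the unstimulated WT arrays and 25 and 26.2 on the IRAK4-KD arrays. Replicate arrays correlated across all probe sets with Spearman rho 0.913 in WT and 0.879 in IRAK4-KD, the highest and the lowest of the 6 groups. The 3′ to 5′ log2 ratio of the Gapdh and Actb control probe sets, a sign of RNA integrity and labelling, was highest of all 12 arrays on IRAK4-KD unstimulated replicate 1 (1.35 and 3.04) and lowest on WT unstimulated replicate 1 (0.81 and 2.22). The other unstimulated arrays had 1.02 and 2.48 (WT) and 0.94 and 2.4 (IRAK4-KD). The part of labelling in the results below was not tested. In the annotation used, 0 probe sets carried the symbol Irak4, and the labels were not checked by the targeted gene. The Y-linked Eif2s3y had signals of 816 and 894 in WT and 322 and 302 in IRAK4-KD cells (-1.44 ± 0.13, limma adjusted p = 3.77e-06), and Kdm5d and Uty were called lower too. The X-linked Xist did not separate the groups, with 392 and 520 in WT and 577 and 334 in IRAK4-KD. Genes of the sex chromosomes were left out of what follows.

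At rest, IRAK4-KD macrophages had lower RNA signals of a group of acute-phase genes, of Tmem176a and Tmem176b and of several connective-tissue genes. They had higher RNA signals of proliferation genes and of several genes of macrophage surface and secreted proteins. Other surface genes, among them Mrc1, Cd274, Clec4n and Cd200r1, were called lower. Of the 12462 autosomal genes, 706 were called (5.67%), 306 higher (2.46%) and 400 lower (3.21%) in IRAK4-KD cells. The median difference was 0.56 among the higher calls and -0.70 among the lower calls, against 0.04 over all autosomal genes. At least 2-fold differences on this scale were found for 63 higher and 120 lower genes. The 4 arrays separated by strain without overlap for 6103 genes (49%), so that a gap between the groups was common among genes that were not called.

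How many genes were called rested strongly on single arrays and on the settings of the fit. Without WT unstimulated replicate 1 there were 153 calls (62 higher, 91 lower, 1.23%). Without WT replicate 2 there were 386 (3.1%), without IRAK4-KD replicate 1 there were 600 (4.81%) and without IRAK4-KD replicate 2 there were 395 (3.17%). With a variance prior that does not follow mean signal there were 43 calls (18 higher, 25 lower, 0.345%), in a fit to the 4 unstimulated arrays alone 333, and with all probe sets of a gene averaged 469. A set of 128 genes (1.03%), 47 higher and 81 lower, was called in the fit to all arrays and in each of the 12 fits that left out 1 array. This stricter set was added after the values were seen, and only genes stated to be called in all 12 fits belong to it. Most of the 12 fits left out an array with LPS, which changed the basal calls less than leaving out an unstimulated array. A gene called in fewer than 12 fits may thus have lost its call in several of the fits without an unstimulated array.

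**Figure D1:**
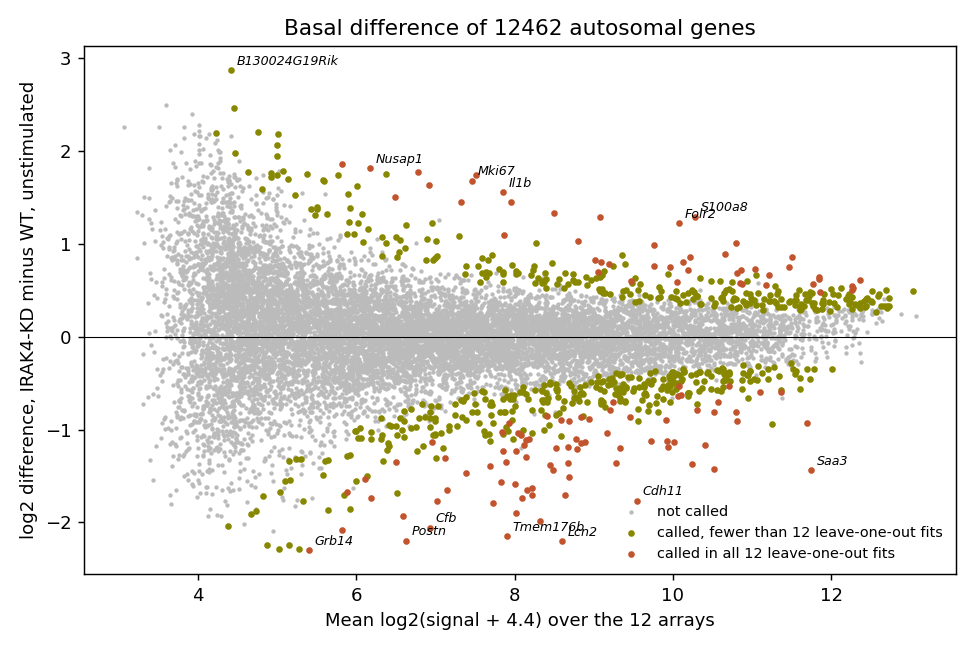
Basal log2 difference (IRAK4-KD minus WT) of each of the 12462 autosomal genes against its mean log2(signal + 4.4) over the 12 arrays. Grey points were not called, olive points were called in the fit to all arrays, and red points, 128 genes including Lcn2, Saa3 and Nusap1, were called in all 12 fits.

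Of 23 tested members of the Toll-like and interleukin-1 receptor pathway, 3 were called higher and 0 lower (13% against 5.67% of all autosomal genes), with a median difference of 0.06. The share of 5.67% stands beside every basal list count below. Tlr4, the LPS receptor, differed by 0.18, its partner Ly96 by 0.02, and the adaptors Myd88, Tirap and Ticam1 by -0.06, 0.06 and 0.07, none of them called. Irak2 and Irak3, relatives of the kinase, differed by -0.19 and 0.23 without a call. Tlr6, which pairs with Tlr2 to sense diacylated lipopeptides, had signals of 82 and 82.6 in WT and 146 and 163 in IRAK4-KD cells and was called higher (0.87 ± 0.19, limma adjusted p = 0.0116). Cd14, the LPS co-receptor, had 2946 and 2827 against 3935 and 3662 (0.40 ± 0.08). Peli1, an E3 ligase of the pathway, had 277 and 287 against 390 and 398 (0.47 ± 0.12). All 4 arrays separated by strain for these 3 genes, as for 49% of all autosomal genes. The list lost calls when any 1 of the 4 unstimulated arrays was left out, and Peli1 turned to -0.15 when all its probe sets were averaged.

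Of 17 tested NF-κB components and feedback genes 0 were called, with a median of -0.03. With 5.67% of all autosomal genes called, a count of 0 in a list of this size is near the background. Nfkbia, the inhibitor that NF-κB itself induces, had 3511 and 2935 in WT and 3279 and 3095 in IRAK4-KD cells (-0.01 ± 0.09). Leaving out 1 of the 4 unstimulated arrays brought in at most 1 member in each direction.

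The acute-phase group held the clearest basal decrease. Of 12 tested complement and acute-phase genes, 5 were called lower and 0 higher, with a median of -1.05, and 4 to 6 were called lower when any of the 4 unstimulated arrays was left out. Lcn2 had signals of 661 and 690 in WT and 142 and 145 in IRAK4-KD cells. Its difference was -2.20 ± 0.13, or 4.59-fold on this scale (limma adjusted p = 5.67e-08), and the groups lay far apart. Cfb, complement factor B of the alternative pathway, had 180 and 177 against 39 and 40.2 (-2.06 ± 0.22, limma adjusted p = 3.06e-05). Saa3 had 4746 and 4870 against 1885 and 1660 (-1.44 ± 0.10, limma adjusted p = 1.05e-07). Hp, haptoglobin, which binds free haemoglobin, had 238 and 232 against 94.9 and 59.6 (-1.58 ± 0.18, limma adjusted p = 4.67e-05). These 4 were called in all 12 fits and also without a trend in the variance prior. Ptx3, a long pentraxin, was called lower (-0.73) in the fit to all arrays, but not in every fit that left out 1 array. The classical complement genes C1qa, C1qb, C1qc and C2 showed no call, with differences from 0.01 to 0.45. The summed signal of the list was 7618 and 7899 on the WT arrays and 3736 and 3059 on the IRAK4-KD arrays. Saa3 was its largest part on all 4 arrays, so the sum follows that gene more than the group.

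**Figure D2:**
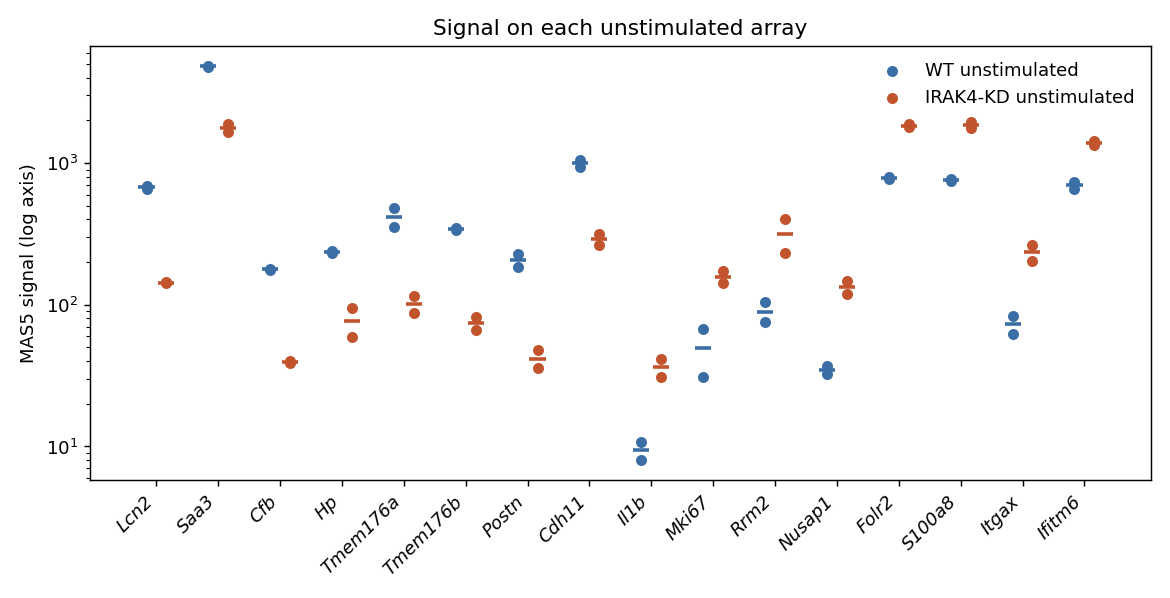
MAS5 signal (log axis) of 16 genes on each of the 4 unstimulated arrays. Blue points are the 2 WT arrays, orange points the 2 IRAK4-KD arrays and bars the group means. Lcn2, Saa3 and Cfb sit lower in IRAK4-KD cells and Folr2, S100a8 and Nusap1 higher. The groups do not overlap for these genes, nor for 49% of all autosomal genes.

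Among cytokines, Il1b was higher at rest in IRAK4-KD cells and Csf1 lower. Of 18 tested cytokine genes these were the only calls (11.1% against 5.67% of all autosomal genes), and the list's median was 0.04. Il1b, which encodes a cytokine that itself signals through IRAK4, had signals of 8 and 10.8 in WT and 30.8 and 41.6 in IRAK4-KD cells (1.55 ± 0.18, limma adjusted p = 6.85e-05). Both WT values lay under the median of their arrays, so the gene was near the low end of the scale. With LPS its order was turned, with 700 and 857 in WT against 334 and 372 in IRAK4-KD cells at 1 h, and 2940 and 2547 against 328 and 412 at 4 h. Csf1, the macrophage growth factor that the medium also supplies, had 293 and 324 against 196 and 116 (-1.0 ± 0.19, limma adjusted p = 0.00436, called in 11 of 12 fits). Tnf, Il6 and Il10 were not called, with differences of 0.22, 0.68 and -0.33.

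Chemokines had more lower than higher calls, 5 against 2 of 22 tested, with a median of -0.28. Ccl7, a monocyte attractant, had 106 and 107 in WT and 24.8 and 44.2 in IRAK4-KD cells (-1.56 ± 0.21, limma adjusted p = 0.000281, called in all 12 fits). Its neighbour in function Ccl2 had 380 and 371 against 244 and 280 (-0.52 ± 0.11). The neutrophil attractants Cxcl5 (-1.05 ± 0.21) and Ppbp (-1.02 ± 0.27) were called lower, as was Ccl5 (-0.35). Ccl9, which acts on CCR1, was higher, with 3749 and 4016 against 6627 and 5255 (0.60 ± 0.10, called in all 12 fits), and Ccl3 was called higher by 0.36. Leaving out WT replicate 1 gave 1 lower and 1 higher chemokine, and without IRAK4-KD replicate 1 there were 3 of each. Of 10 tested chemokine and chemoattractant receptors, 0 were called, which in a list this short is near the background of 5.67%. C5ar1, the receptor of complement C5a, had 3611 and 3377 against 4457 and 3782. Of the 12 fits without 1 array, C5ar1 was called in 1.

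Among MHC class II genes, the lower calls were the Tmem176 pair, which were put on this list for their place in antigen presentation. Tmem176b had signals of 348 and 338 in WT and 81.6 and 66.7 in IRAK4-KD cells (-2.15 ± 0.16, limma adjusted p = 3.03e-07). Tmem176a had 482 and 353 against 116 and 87.4 (-1.98 ± 0.22, limma adjusted p = 4.15e-05), and its other 2 probe sets were called lower as well. The class II molecules H2-Aa, H2-Ab1 and Cd74 were not called, with differences of 0.63, -0.54 and 0.13. Ifi30, a lysosomal thiol reductase, was called higher (0.51 ± 0.10), and so was the protease Ctss (0.30 ± 0.08), whose difference was -0.05 under quantile normalization. Over the 12 tested members the calls were 2 higher and 2 lower, and without WT replicate 1 the 2 lower calls alone were made.

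MHC class I genes had calls in the other direction. Of 14 tested members, 6 were called higher and 0 lower, with a median of 0.22. The heavy chain H2-K1 had 2860 and 2650 in WT and 4177 and 3975 in IRAK4-KD cells (0.56 ± 0.09, limma adjusted p = 0.00102), and it was the member called in all 12 fits. The immunoproteasome subunits Psmb10 (0.80 ± 0.15) and Psmb8 (0.49 ± 0.14), the heavy chain H2-D1 (0.43 ± 0.11), the loading factor Tapbp (0.41) and B2m (0.33) were the others. H2-D1 shares sequence with other class I genes, and 1 of its other probe sets was called in the opposite direction. Of its 3 other probe sets, H2-K1 had 1 with the same sign. Without WT replicate 1, WT replicate 2, IRAK4-KD replicate 1 and IRAK4-KD replicate 2 the list had 1, 3, 4 and 4 calls, and under quantile normalization 4.

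Interferon-induced genes had calls in both directions. Of 37 tested, 3 were called higher and 2 lower (13.5% against 5.67% of all autosomal genes), with a median of 0.15. Parp14, an ADP-ribosyltransferase, had 355 and 403 in WT and 657 and 618 in IRAK4-KD cells (0.75 ± 0.11, limma adjusted p = 0.000526, called in all 12 fits). Rtp4 (0.78 ± 0.15) and Oas2 (1.22 ± 0.30), an RNA sensor, were called higher, while Gbp3, a guanylate-binding protein (-0.67 ± 0.16), and Ifi204, a DNA sensor (-0.70 ± 0.18), were called lower. Ifit1, Mx1 and Irf7 were not called (0.00, 0.22 and 0.34). Without WT replicate 1 the list had 1 higher and 0 lower calls, and without WT replicate 2 it had 5 and 1. Outside the list, the interferon-responsive Ifi27l2a had 1171 and 1293 against 2694 and 2267 (1.00 ± 0.11, limma adjusted p = 2.77e-05), and the interferon-induced transmembrane family member Ifitm6 had 654 and 740 against 1333 and 1432 (0.99 ± 0.12, limma adjusted p = 0.000137). Both were called in all 12 fits.

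Proliferation genes were higher in resting IRAK4-KD cells. Of 27 tested cell cycle genes, 10 were called higher and 0 lower, and 24 of 27 had a positive difference, with a median of 0.60. Rrm2, the small subunit of ribonucleotide reductase, had 75 and 104 in WT and 232 and 403 in IRAK4-KD cells (1.74 ± 0.22, limma adjusted p = 0.000137). Mki67, the proliferation marker Ki-67, had 31.1 and 67.4 against 173 and 143 (1.68 ± 0.24, limma adjusted p = 0.000407). Birc5, survivin of the chromosomal passenger complex, had 103 and 108 against 248 and 351 (1.44 ± 0.20, limma adjusted p = 0.000315). Ccnd1, the G1 cyclin D1, had 1080 and 1310 against 2043 and 2103 (0.80 ± 0.10, limma adjusted p = 0.000178). These 4 were called in all 12 fits, and the groups did not overlap for any of them, as for 49% of all autosomal genes.

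Ccna2, Cdk1, Mcm4, Mcm6, Pcna and Cdkn1a completed the list's calls, with differences from 0.34 to 1.75. Cdkn1a (0.34) encodes p21, an inhibitor of cyclin-dependent kinases. Ccnb2 differed by 1.77 and Bub1 by 0.89 without a call. Outside the list, the spindle protein Nusap1 had 36.8 and 32.5 against 119 and 147 (1.81 ± 0.25), the PCNA partner Pclaf had 49.3 and 82.8 against 220 and 239 (1.77 ± 0.24), and the DNA methylation factor Uhrf1 had 204 and 194 against 386 and 664 (1.33 ± 0.19). All 3 were called in all 12 fits, although the 2 other probe sets of Pclaf had the opposite sign without a call. Without any 1 of the 4 unstimulated arrays, 4 to 6 members of the list were called, and with no variance trend 1 was. The E2F letters TTTNGCGC were in 2 of the 7 called members' promoters in the table and in 2.03% of all promoters, and the CHR letters TTTGAA in 2 of 7 and in 10.5%.

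The macrophage markers ranged widely in signal in both strains. The lineage genes Adgre1 (2352 and 2320 in WT, 2757 and 2409 in IRAK4-KD), Cd68 (2864 and 3021, 3639 and 3448) and Lyz2 (5629 and 5498, 9039 and 6875) had high signals on all 4 arrays. Mertk (114 and 112, 146 and 96.1), Itgam (31.4 and 51.7, 58.3 and 68.1), Ptprc (77.2 and 105, 101 and 48) and Trem2 (5.3 and 30.5, 32.9 and 6.7) had low ones, and Trem2 was under the array median on 1 array of each strain. Of 18 tested members of the list, 4 were called higher and 1 lower, with a median of 0.24. The higher calls were the CSF1 receptor Csf1r (0.44 ± 0.10), lysozyme Lyz2 (0.50 ± 0.10), Cd14 and the transcription factor Cebpa (0.68 ± 0.12). Under quantile normalization 2 members were called higher and 1 lower, with a median of 0.12. The lineage factor Spi1 differed by -0.05 ± 0.16. The summed signal of the list was 32204 and 32733 on the WT arrays and 43529 and 36893 on the IRAK4-KD arrays, with the highest sum on IRAK4-KD replicate 1. Without WT replicate 1 or WT replicate 2, 1 member was called higher, and without IRAK4-KD replicate 1, 2 were.

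Mrc1, the mannose receptor CD206, was the lower call, with 655 and 679 in WT against 317 and 258 in IRAK4-KD cells (-1.21 ± 0.14, limma adjusted p = 5.33e-05). Folr2, the folate receptor of tissue macrophages, was higher, with 802 and 771 against 1800 and 1882 (1.22 ± 0.11, limma adjusted p = 3.24e-06). Egr2, a transcription factor of growth and alternative activation, was higher too, with 1146 and 1091 against 2102 and 2046 (0.89 ± 0.09, limma adjusted p = 1.57e-05). All 3 belong to the list of alternatively activated genes, where 2 of 11 were called higher and 1 lower with all arrays, without any 1 of the 4 unstimulated arrays and with no variance trend. The other 8 members were not called, among them Retnla (0.59) and Cd163 (-0.89).

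Other genes called in all 12 fits were higher or lower as follows. Itgax, the integrin CD11c of dendritic cells and some macrophages, had 83.5 and 61.7 in WT and 263 and 205 in IRAK4-KD cells (1.63 ± 0.25, limma adjusted p = 0.000753). Cd5l, a secreted scavenger protein of macrophages, had 23.7 and 28.9 against 97.3 and 117 (1.86 ± 0.32, limma adjusted p = 0.00199). S100a8, a calcium-binding alarmin, had 769 and 742 against 1761 and 1946 (1.29 ± 0.12, limma adjusted p = 7.27e-06). Adgrg6, an adhesion receptor, was higher by 1.28 ± 0.15 and the paired receptor Pilrb1 by 1.03 ± 0.16. Cd274, the checkpoint ligand PD-L1, was lower, with 1580 and 1403 against 709 and 889 (-0.90 ± 0.10, limma adjusted p = 5.43e-05). All 6 were called in all 12 fits. Cd200r1, an inhibitory receptor, was also called lower (-0.67 ± 0.18), and 9 other co-stimulatory genes, among them Cd40, Cd80 and Cd86, were not called.

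Of 16 scavenger and C-type lectin receptors, 4 were called higher and 2 lower. Clec7a, the β-glucan receptor Dectin-1, was higher by 0.59 ± 0.13, and Clec4n, Dectin-2, lower by -0.61 ± 0.12. Olr1, an oxidised lipoprotein receptor, was called higher (1.38 ± 0.33) with signals of 1.3 and 7 against 12.5 and 21.6. Leaving out WT replicate 1 gave 0 higher and 1 lower call. Of 20 lysosome and phagosome genes, 5 were called higher and 0 lower, with a median of 0.26. Atp6v0d2, a subunit of the proton pump, had 221 and 256 against 494 and 532 (1.09 ± 0.16, limma adjusted p = 0.000491), and it was the member called in all 12 fits. The cathepsins Ctsb (0.44 ± 0.09), Ctsz (0.52 ± 0.11) and Ctss and the hexosaminidase subunit Hexa (0.32 ± 0.09) were the others. Of the 4 other probe sets of Ctsb, 1 had the same sign, and it was called. Without WT replicate 1 or IRAK4-KD replicate 1, 1 member was called, without IRAK4-KD replicate 2 there were 7, and under quantile normalization 2.

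Of the gene lists, that of connective tissue had the most lower calls. Of 21 tested extracellular matrix and stromal markers, 8 were called lower and 1 higher, with a median of -0.70. Postn, periostin of the matrix, had 230 and 184 in WT and 47.6 and 35.9 in IRAK4-KD cells (-2.20 ± 0.29, limma adjusted p = 0.000217). The fibrillar collagens Col3a1 (87.2 and 103 against 26.1 and 27.5), Col5a2 (396 and 422 against 196 and 150) and Col1a1 were lower by -1.67 ± 0.30, -1.23 ± 0.18 and -1.12. Col1a2, Sparc, Igfbp7 and Vcam1 were called lower by -0.90, -0.70, -1.12 and -0.86. Fbln1 was called higher (1.16 ± 0.28) in 9 of 12 fits, and its 1 other probe set had the opposite sign without a call. The list's 8 lower calls were 6, 7, 9 and 7 when WT replicate 1, WT replicate 2, IRAK4-KD replicate 1 and IRAK4-KD replicate 2 were left out, and 0 with no variance trend.

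Outside the list, the following genes were picked after their values were seen, from those lower in IRAK4-KD cells and called in all 12 fits, and they stand for no list or test. Cdh11, the cadherin of fibroblasts and osteoblasts, had 1046 and 945 against 317 and 264 (-1.76 ± 0.15, limma adjusted p = 3.24e-06). Ltbp2, which binds fibrillin, had 504 and 610 against 186 and 151 (-1.70 ± 0.16, limma adjusted p = 6.02e-06). Grem1, a secreted BMP antagonist, had 439 and 484 against 175 and 144 (-1.51 ± 0.16, limma adjusted p = 3.06e-05). Gas1, a hedgehog co-receptor, had 384 and 293 against 108 and 91.9 (-1.71 ± 0.17, limma adjusted p = 1.57e-05). The collagens Col8a1 (-1.79 ± 0.19) and Col12a1 (-1.47 ± 0.21), the guidance receptor Robo1 (-1.73 ± 0.19), the transcription factor Tbx18 (-1.65 ± 0.25), N-cadherin Cdh2 (-1.63 ± 0.25) and the thrombin receptor F2r (-1.90 ± 0.22) completed this group. For each of them both IRAK4-KD arrays lay below both WT arrays, which the way they were picked made likely. Groups without overlap, in either direction, were found for 49% of all autosomal genes. Col12a1 had 1 other probe set, with the opposite sign and no call. Mgp, which encodes matrix Gla protein and is also outside the list, was called higher, with 260 and 325 against 545 and 403 (0.68 ± 0.19, limma adjusted p = 0.041, called in 7 of 12 fits), and again with LPS (1.73 at 1 h and 1.46 at 4 h).

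The summed signal of the stromal list was 7904 and 7880 on the unstimulated WT arrays and 5819 and 4465 on the unstimulated IRAK4-KD arrays. On the arrays with LPS it was 8361 and 8298 in WT and 8252 and 6474 in IRAK4-KD cells at 1 h, and 7895 and 7213 against 8386 and 8152 at 4 h. The unstimulated IRAK4-KD arrays had the lowest sums of the 12, and at 4 h of LPS both IRAK4-KD arrays lay above both WT arrays. In RNA of whole cultures, fewer cells of a type and less RNA per cell cannot be told apart, and the part of stromal cells in the other basal differences was not tested. The acute-phase sums were lower in IRAK4-KD cells in all 3 conditions, and Saa3 was their largest part on the unstimulated arrays. The part of cell mix in that difference was not tested either. Of the matrix proteases, 3 of 14 were called lower and 0 higher: Mmp14, a membrane-bound collagenase, with 60 and 42.2 against 13.1 and 5.2 (-2.08 ± 0.32, called in all 12 fits), Adamts4 (-1.02 ± 0.24) and Mmp9 (-0.73 ± 0.17). Without WT replicate 1, WT replicate 2 or IRAK4-KD replicate 2, 1 of them was called.

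**Figure D3:**
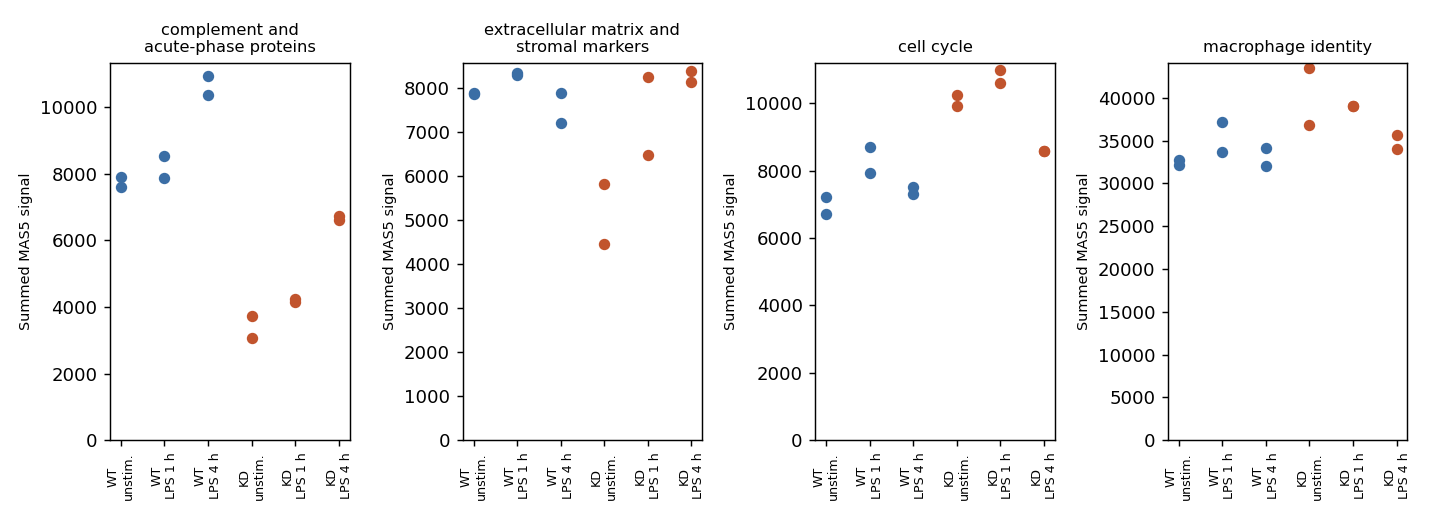
Summed MAS5 signal of the tested members of 4 gene lists on all 12 arrays, with each point 1 array, WT blue and IRAK4-KD orange. Acute-phase sums, of which Saa3 is the largest part on the unstimulated arrays, are lower in IRAK4-KD cells in every condition. Stromal sums are low (5819 and 4465) on the unstimulated IRAK4-KD arrays and lie above both WT arrays at LPS 4 h (8386 and 8152).

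Markers of other cell types were called in 4 of the 7 lists tested. Of 4 tested T and NK cell markers and of 4 mast cell and basophil markers, 0 were called, as of 5 erythroid and megakaryocyte markers. In lists this short, 0 calls is near the background of 5.67%. The defining T cell genes Cd3d, Cd3e and Cd3g did not pass the filter on low signal. Blnk was the B cell marker called (0.58 ± 0.14), while Ighm and Ebf1 were not. Of 6 neutrophil markers, S100a8 was higher and Lcn2 lower, and Elane, Camp, Mmp8 and Csf3r were not called. Of 6 dendritic cell markers Itgax alone was called, and Zbtb46 was not. Of 8 osteoclast markers, Atp6v0d2 and Dcstamp, a fusion protein (1.68 ± 0.45), were higher and Mmp9 lower. The summed signal of the dendritic cell markers was 1668 and 1880 in WT and 2296 and 2239 in IRAK4-KD cells, and that of the osteoclast markers 1103 and 1119 against 1420 and 1460. The part of such cells in the results was not tested.

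Genes of metabolism and stress had calls in both directions, to be read beside the 5.67% of all autosomal genes called. Of 15 ribosomal protein genes 4 were called higher and 0 lower (Rpl4, Rpl10a, Rpl13a and Rpl19, by 0.36 to 0.49), and 0 were called without WT replicate 1. Of 22 genes of oxidative phosphorylation 3 were called higher (by 0.29 to 0.37), and of 17 glycolysis and hypoxia genes 2 (Aldoa 0.40, Ldha 0.29), with 0 of either without WT replicate 1. Of 24 sterol and lipid genes, Scd2, a stearoyl-CoA desaturase, was lower, with 1071 and 1011 against 500 and 512 (-1.03 ± 0.14, limma adjusted p = 0.000255, called in all 12 fits). The cholesterol exporter Abca1 was lower (-0.61 ± 0.12), and Lpl (0.35 ± 0.08) and Plin2 (0.42 ± 0.10) were higher. Neither Lpl nor Plin2 was called in all 12 fits. Under quantile normalization the sterol and lipid list had 0 higher calls and the glycolysis list 0. The oxidative phosphorylation list then had 1 and the ribosomal list 2. Hspa5, the chaperone BiP of the endoplasmic reticulum, had 1962 and 1843 against 3596 and 3325 (0.86 ± 0.13, limma adjusted p = 0.000824, called in all 12 fits). Of the 21 genes of the unfolded protein list Hspa5 and Atf3 (0.41 ± 0.10) were the called ones (9.52%), and Ddit3, Xbp1 and Hsp90b1 were not.

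Antioxidant genes had 3 lower calls, metallothionein Mt2 (-0.71 ± 0.13), Gstm1 (-0.49 ± 0.10) and catalase Cat (-0.47 ± 0.09), and 1 higher, Gpx1 (0.38 ± 0.11), of 18 tested. Of 13 iron-handling genes Lcn2, the iron exporter Slc40a1 (-0.52 ± 0.13) and ceruloplasmin Cp (-0.97 ± 0.26) were lower and 0 higher. Each of these lists had 1 lower call without WT replicate 1. Of 26 immediate early genes, Egr2, Fos (0.63 ± 0.12) and Atf3 were called higher and Ier3 (-0.70 ± 0.15) lower, while Egr1, Jun and Myc had differences of -0.08, 0.08 and -0.01. Leaving out WT replicate 1 gave 1 higher and 0 lower calls among the immediate early genes.

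**Figure D4:**
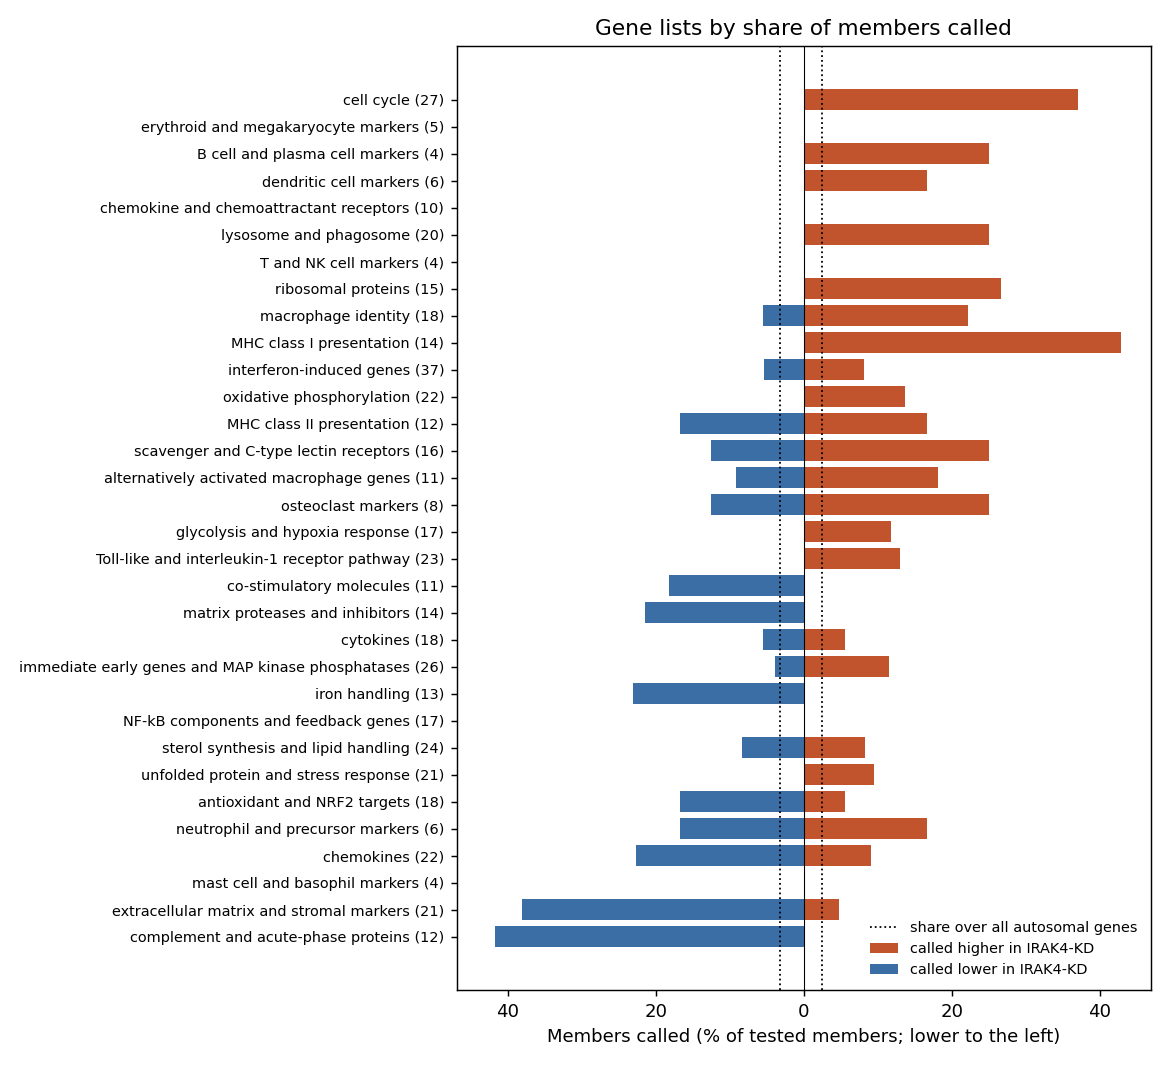
Share of the tested members of each gene list (number in brackets) called higher (orange, right) or lower (blue, left) in unstimulated IRAK4-KD cells, ordered by the list's median difference. Dotted lines mark the shares over all autosomal genes, 2.46% higher and 3.21% lower. Complement and acute-phase and stromal lists lie at the bottom and the cell cycle list at the top.

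The extreme differences by the naming rule included genes of low signal. The 15 highest were B130024G19Rik, Pspn, Chaf1b, Agbl4, Matk, Tmem88, E2f7, Rad51ap1, Cd5l, Nusap1, Tmprss5, Pclaf, Barhl2, Apc2 and Ing1, with differences from 1.75 to 2.87. B130024G19Rik had 2.9 and 1.9 in WT and 41.1 and 49.6 in IRAK4-KD cells (2.87 ± 0.57). This gene, Agbl4 and E2f7 lay under the array median on every WT array. They passed the filter on low signal only through IRAK4-KD arrays, which favours such a difference. Cd5l, Nusap1 and Pclaf were the genes of these 15 called in all 12 fits. The 15 lowest were Grb14, Mtg2, Cxxc5, Celsr3, Top3a, Lcn2, Postn, Tmem176b, Mmp14, Cfb, Gzmk, Tmem176a, Plac8, Shpk and F2r, with differences from -2.30 to -1.90. Grb14, an adaptor of the insulin receptor, had 44.8 and 48.2 against 3.4 and 9.3 (-2.30 ± 0.36, called in all 12 fits). Plac8 had 178 and 167 against 46.1 and 38.3 (-1.93 ± 0.24, called in all 12 fits). Other genes lower in all 12 fits were Il7, a lymphocyte growth factor (108 and 109 against 22 and 39), Il1rl2, the receptor of interleukin-36 (92.4 and 98.9 against 32.9 and 27.5), Ereg, an EGF receptor ligand (222 and 326 against 120 and 112), and Ly75, an endocytic receptor (448 and 411 against 186 and 96.1).

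The same strain contrast was taken on the arrays with LPS, whose group means share none of the 4 basal arrays. All 3 contrasts used the same filter and the same estimate of spread for each gene. A gene with a small spread is therefore more readily called in each of them. The overlaps of calls below are counts and not an independent replication. Of the 706 basal calls, 80 (11.3%) were called in the same direction at 1 h, where 1.48% of autosomal genes were called, and 128 (18.1%) at 4 h, where 6.73% were. Counted from the other side, these were 43.2% of the 185 calls at 1 h and 15.3% of the 839 calls at 4 h. The sign of the difference was kept by 540 of the 706 (76.5%) at 1 h and by 453 (64.2%) at 4 h, against 58.7% and 56.1% of all autosomal genes. Calls in the opposite direction numbered 3 at 1 h (Egr2, Il1b and Ptger4) and 23 at 4 h. A total of 60 genes (0.481%) were called in all 3 conditions, and 58 of them kept their direction, 36 higher and 22 lower in IRAK4-KD cells. Il1b and Ptger4, a prostaglandin receptor, did not.

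Lcn2 and Cfb kept nearly the same deficit throughout. Lcn2 differed by -1.98 at 1 h and -2.17 at 4 h (limma adjusted p = 1.71e-07 and 2.14e-08), with 1294 and 1379 in WT and 296 and 290 in IRAK4-KD cells at 4 h. Cfb differed by -2.06 and -1.90, and Saa3 by -1.24 and -0.78, all called. Postn (-2.09 and -1.60), Ereg (-1.86 and -1.48), Mrc1 (-1.06 and -0.88) and Ccl7 (-1.08 and -1.21) were also lower at both times. Among the higher genes, Folr2 differed by 1.07 and 1.22, S100a8 by 1.33 and 1.13, Ifitm6 by 1.20 and 1.45, Ifi27l2a by 0.91 and 0.85, Nusap1 by 2.50 and 1.72, Birc5 by 1.16 and 1.73 and Atp6v0d2 by 1.04 and 1.54, each called. The cell cycle list had 5 members called higher at 1 h, where 0.714% of autosomal genes were, and 12 at 4 h, where 4.23% were, with 0 called lower at either time.

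Other basal differences were not called once LPS was present. Tmem176b had 325 and 339 in WT and 208 and 217 in IRAK4-KD cells at 1 h (-0.63, limma adjusted p = 0.0575) and 368 and 311 against 254 and 284 at 4 h (-0.33, limma adjusted p = 0.277). With LPS it rose in IRAK4-KD cells by 1.47 at 1 h and 1.81 at 4 h, while the WT cells had changes of -0.05 and -0.02 without a call. Both times were set against the same unstimulated arrays. These arrays also chose the gene by its low basal value, which favours such a rise. Hp was not called at either time (-0.64 and -0.34). Gas1 had 695 and 606 in WT against 829 and 628 in IRAK4-KD cells at 1 h. Mki67 had 333 and 322 against 227 and 209 at 4 h, the opposite order to the basal arrays, without a call (-0.58). Of the stromal list, 5 members were called lower (0.77% of autosomal genes) and 2 higher at 1 h, and 2 lower (2.5%) and 3 higher at 4 h. The basal and later differences of the stromal list differed from each other at 4 h for 8 of its 21 members, all upwards, where 2.5% of autosomal genes had such an upward call, in a test that uses the same unstimulated arrays.

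**Figure D5:**
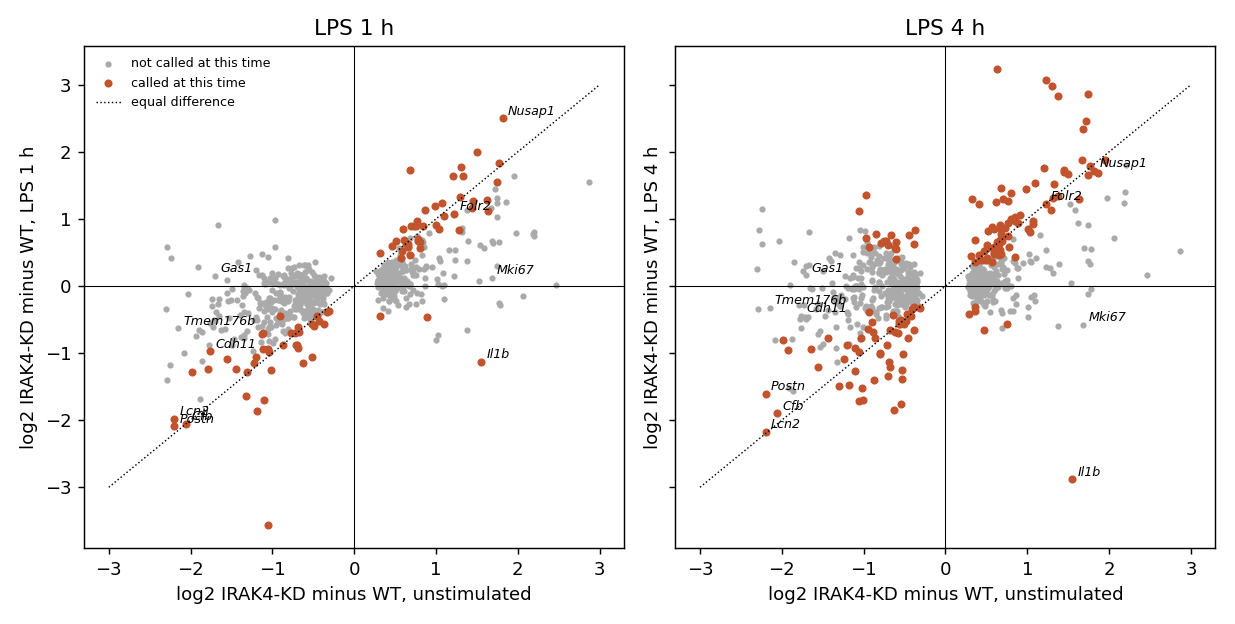
Log2 difference IRAK4-KD minus WT of the 706 basal calls, unstimulated (horizontal) against LPS 1 h (left) and LPS 4 h (right). Orange points were also called at that time and the dotted line marks equal differences. Lcn2 and Nusap1 stay near the line, Tmem176b and Gas1 move towards 0, and Il1b changes sign.

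The called genes were spread over all autosomes. The share of tested genes called ran from 4.12% on chromosome 11 to 7.35% on chromosome 3, and on chromosome 15, which carries Irak4, it was 24 of 513 (4.68%). Of the 25 genes listed on each side of Irak4, 10 were tested and 0 were called. With 5.67% of all autosomal genes called, a count of 0 of 10 is near the background. The nearest tested gene, Pus7l, differed by 0.56 ± 0.50. Among the 50 tested genes nearest to Irak4 on the chromosome, Scaf11 was called lower (-0.60 ± 0.13), which was chosen for mention after its value was seen.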

How the data were processed

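Per the labels' protocols, total RNA of mouse bone marrow macrophages was labelled with NuGEN Ovation and hybridised to 12 one-colour arrays. The authors deposited 1 linear signal intensity for each probe set and array. It came from MAS5, per the submitters' processing notes. Its version, scaling target and filters were not given in the sources used here. The number of arrays limits the precision.

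Of 45101 probe sets, 64 were controls, and 27931 with a signal over the array median on at least 2 of 12 arrays were tested. Of all probe sets 34958 had 1 gene symbol, 932 had several and were not named, and 34749 matched the GRCm38.p6 gene table, which was used for names, chromosomes and gene order. Each gene took the value of 1 tested probe set. Sets with IDs ending in _x_at, _s_at or _a_at were used only where no other was tested. Among the sets left, the one of highest mean signal was taken, so a brighter set of those types could be passed over.

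The 6 group means were fitted on log2(signal + 4.4), 4.4 being the 20th percentile of all values, with limma 3.58.1 in R 4.3.3 (empirical Bayes with a mean-variance trend, Benjamini-Hochberg adjustment, threshold 0.05). Promoters were searched and figures drawn with Python 3.11.15. On simulated data 35% of changes of log2 size 1 and 62% of size 2 were recovered in the unstimulated contrast, with 2 false calls among 27931 probe sets. The simulated noise was normal and independent for each probe set and array, and 100 probe sets of each size were changed. Shared effects of an array, such as labelling, were left out. These rates check the fit and do not carry over to the calls on the real arrays.

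Named genes were the 15 highest and 15 lowest called genes with no overlap between groups, up to 4 called members of each of 32 lists (or the member with the highest mean where none was called), and called neighbours of Irak4. Genes called in all 12 leave-one-out fits or in all 3 conditions were added after the values were seen, as were the C/EBP, E2F and CHR motifs, the list counts without 1 array and a few list members given with their differences. The members and lists were chosen with earlier results of these data known. Alternatives were quantile normalization, median centring, other filters and pseudocounts, no variance trend, the 4 arrays alone, the replicate block, the mean of all probe sets of a gene and leaving out each array.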

Additional observations from a re-analysis of the deposited data

Results flagged for a closer look

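For the named genes below the strain difference itself changed with LPS (limma interaction, adjusted p under 0.05). Values are the strain difference with LPS minus that at rest, on the log2 scale. The cultures at rest were kept for 4 h, and they were the reference for LPS 1 h too. The test uses the unstimulated arrays that also chose the genes by their basal difference, so a shift towards 0 is favoured by that choice and is given as a value only.

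Il1b changed most, by -2.68 at 1 h and -4.43 at 4 h. Among immediate early genes the shifts were -0.95 at 1 h and 2.61 at 4 h for Fos, -1.34 and -0.77 for Egr2, and -0.78 at 1 h for Atf3. Fos had 163 and 136 in WT and 1416 and 1467 in IRAK4-KD cells at 4 h of LPS. Ptger4 shifted by -0.76 at 1 h and 0.98 at 4 h, and Cxcl5 by -2.51 at 1 h.

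Genes lower at rest in IRAK4-KD cells mostly shifted upwards. At 1 h and 4 h the shifts were 1.52 and 1.82 for Tmem176b, 1.86 and 1.87 for Gas1, 1.30 and 1.47 for Grem1, 1.18 and 1.21 for Ltbp2 and 1.53 and 1.46 for Robo1. At 4 h alone they were 1.19 for Tmem176a, 1.24 for Hp, 0.66 for Saa3, 1.32 for Cdh11, 1.59 for Cdh2, 2.47 for Col3a1, 1.03 for Col5a2, 1.5 for Col8a1, 1.90 for F2r, 1.62 for Tbx18, 1.96 for Il7, 1.28 for Akr1c14, 1.25 for Scd2, 1.43 for Cd200r1 and 2.55 for Grb14. The low-signal genes Celsr3, Cxxc5 and Top3a shifted by 2.87, 3.12 and 3.39. AW112010 went the other way, by -1.23, as did Cxcl5 above.

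Genes higher at rest shifted downwards, apart from Ccnd1 (0.59) and the 4 h values of Fos and Ptger4. At 4 h the shifts were -2.26 for Mki67, -1.98 for Olr1, -1.31 for Parp14, -1.15 for Rtp4, -1.13 for Peli1, -1.02 for Adgrg6, -1.0 for Hspa5, -0.68 for H2-K1, -0.65 for Ccl9, -0.53 for Cd14, -0.50 for Ctsb and -0.49 for Rpl4. Cnih4 shifted by -1.05 at 1 h and -1.0 at 4 h.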

How the results depend on the processing

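The 706 basal calls (306 higher, 400 lower) became 43 (18 and 25) with no trend in the variance prior, 333 (137 and 196) in a fit to only the 4 unstimulated arrays, and 469 (231 and 238) when all probe sets of a gene were averaged. Leaving out 1 array gave 153 to 729 basal calls, 62 to 317 higher and 91 to 413 lower, with the lowest without WT unstimulated replicate 1. At LPS 1 h the 185 calls became 10 with no trend and 78 to 242 without 1 array, and at LPS 4 h the 839 calls became 311 and 336 to 940. Quantile normalization (705), median centring (634) and pseudocounts of 1 (675) and 23.4 (730) stayed within 1.5 times of the basal count. So did no filter (496 of 17404 genes tested) and the 75th percentile filter (974 of 7207), against 706 of 12462 in the main fit. The filters change how many genes are tested, so the shares called differed more than the counts. Of 156 named called genes, 28 were still called with no trend, 97 with the 4 arrays alone, 136 under quantile normalization and 71 without WT unstimulated replicate 1. Differences changed sign for Ctss under quantile normalization (-0.05) and, with probe sets averaged, for Ednrb (0.02) and Peli1 (-0.15), and the cause was not tested. With the replicate number as a block there were 643 basal calls (269 higher, 374 lower), but deviations of same-numbered arrays correlated between -0.068 and 0.04 over 15 pairs of groups, so the samples share only a number. Low signals limit what can be ranked: the largest differences were of genes near the low end of the scale.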
